A study of Mus musculus with 6 samples.

Results

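The 34 genes examined here make up the mouse pathway of cholesterol synthesis with its sterol sensors, the core enzymes of fatty acid synthesis, desaturation and elongation, and the sterol carrier gene Stard4. They are a list of named pathway members, with no threshold on a measured value, and all 34 had a row among the 16440 genes of the deposited table. RNA sequencing had been performed on 6 libraries of FACS-sorted cells from FVB N/J mice. In 3 of them the cells were normal myeloid progenitors (MPs), which are Lin-Sca-1-c-Kit+ BM cells, and in the other 3 they were c-Kit+ acute promyelocytic leukemia (APL) cells. The leukemia had arisen in the hMRP8-PML/RARα transgenic line, in which a human promoter active in myeloid cells drives the fusion gene. They carried GFP from the retroviral vector MigR1 and had been propagated by transplantation into syngeneic recipients, so that transgene, vector and passage through a recipient separate the groups together. No drug is named in the labels of either group. Young adult recipients are described for the transplantation experiments of the study, but the labels give neither age nor sex for the animals behind these libraries. The 3 libraries of a group are described as biological replicates, but whether the 3 APL libraries came from 1 leukemia is not given in the sources used here, and p-values measure the spread between these libraries.

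Cholesterol is built from acetyl-CoA through mevalonate, isoprenoid diphosphates, squalene and lanosterol. The enzymes of this route, and many of those that make and modify fatty acids, are transcribed under control of the sterol regulatory element-binding proteins (SREBPs), which Scap escorts out of the endoplasmic reticulum when sterols are low and which the Insig proteins hold back when sterols are high. SREBP-2, encoded by Srebf2, acts mainly on sterol genes and SREBP-1, encoded by Srebf1, mainly on fatty acid genes. Dividing blood progenitors need both kinds of lipid for new membranes.

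Levels are given on a pair of scales. Scaled fragments are the authors' estimated fragments per gene after a scaling of their own that differed between libraries, and FPKM are fragments normalized to transcript length and sequencing depth, which allow levels of different genes to be compared. A log2 fold change (log2 FC) is APL against MP on log2(scaled fragments + 1), fitted with limma over the 14595 genes that reached 1 scaled fragment in 3 or more libraries. A gene is called, and is said to have risen or fallen, at a Benjamini-Hochberg adjusted p under 0.05 and a fold over 1.5.

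The groups differed over much of the table, so each count of members is read against that background. Of all genes tested, 21.7% were called higher and 24.4% lower in APL cells, and 70.9% had groups whose libraries did not overlap. The median log2 FC of all genes tested was -0.10. Genes of chromosomes 8 and 15 lay above the rest, with a median log2 FC of 0.47 over 776 genes and 0.46 over 561 genes, whereas the medians of the other 14 chromosomes that carry members differed from the rest of the genome by between -0.13 and 0.05. Marker lists also moved with the groups. Of 8 erythroid markers tested, 7 fell, and their summed level, which lay between 1501 and 1978 FPKM in the MP libraries, lay between 12.3 and 23.4 FPKM in the APL libraries. Of 6 megakaryocyte markers, 5 fell, from a sum of 68.8 to 104 FPKM down to 3.53 to 4.83 FPKM. Of 4 early granulocyte markers, 3 rose, from a sum of 8378 to 9460 FPKM up to 22920 to 27383 FPKM. Of 6 late granulocyte markers 2 rose (S100a8 and S100a9) and 2 fell (Ltf and Ngp), with a median log2 FC of -0.05, while their sum lay between 11822 and 18368 FPKM in MPs and 45640 and 59524 FPKM in APL cells. Of 6 monocyte and macrophage markers 3 rose and 3 fell, with a sum between 23.1 and 29.5 FPKM in MPs and 38.8 and 40.3 FPKM in APL cells. Kit, the receptor used for sorting, was present in all libraries, at 39.6 to 40.7 FPKM in APL cells and 70.6 to 74.5 FPKM in MPs. The adipocyte markers in the table, Adipoq, Plin1 and Lep, had at most 3 fragments in every library. In bulk libraries such as these, fewer cells of a type and less RNA per cell cannot be told apart.

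Promoter windows were taken to show the sequence in front of the members on which the results turn. RefSeq (GRCm38.p6) gave a window of 250 bases before to 50 bases after the start for 27 of the 34 members. They were searched on both strands for TCACNCCA, a form of the sterol regulatory element (SRE), for CACGTG, the E-box that SREBP-1 and other factors can bind, and for CCAAT, the core of the NF-Y site that often neighbours an SRE. TCACNCCA can run into CCAAT, which happens in none of the windows shown. Capitals mark every match below, with ATTGG standing for CCAAT on the other strand. Fdps, Fdft1, Sqle, Scd1, Scd2, Fads1 and Stard4 had no window and were not searched. Hmgcs1, Srebf2 and Sc4mol are shown as the only members with a window that matched TCACNCCA. Insig1 and Hsd17b7 are shown as called members with an E-box, and Elovl6 as a member that fell.
Hmgcs1, chr13:119690101-119690400, plus strand: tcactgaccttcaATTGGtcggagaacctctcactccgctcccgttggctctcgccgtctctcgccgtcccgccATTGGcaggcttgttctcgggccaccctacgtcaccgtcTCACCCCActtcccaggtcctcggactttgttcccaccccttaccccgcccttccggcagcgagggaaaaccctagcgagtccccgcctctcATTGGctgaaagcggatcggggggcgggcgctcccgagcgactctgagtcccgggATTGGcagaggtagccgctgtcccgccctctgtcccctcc
Srebf2, chr15:82147019-82147318, plus strand: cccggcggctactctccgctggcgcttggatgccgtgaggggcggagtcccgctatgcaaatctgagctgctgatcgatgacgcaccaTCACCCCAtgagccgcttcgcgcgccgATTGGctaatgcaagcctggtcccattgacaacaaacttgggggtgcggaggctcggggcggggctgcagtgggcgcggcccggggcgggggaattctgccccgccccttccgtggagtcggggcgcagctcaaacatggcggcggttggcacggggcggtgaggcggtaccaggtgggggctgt
Sc4mol (Msmo1 in RefSeq), chr8:64733529-64733828, minus strand: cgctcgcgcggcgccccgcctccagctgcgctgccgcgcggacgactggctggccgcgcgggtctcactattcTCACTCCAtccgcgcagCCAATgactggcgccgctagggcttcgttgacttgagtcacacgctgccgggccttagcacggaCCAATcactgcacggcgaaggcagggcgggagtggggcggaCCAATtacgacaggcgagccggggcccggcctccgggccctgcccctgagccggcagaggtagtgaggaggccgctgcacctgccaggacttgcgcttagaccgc
Insig1, chr5:28071162-28071461, plus strand: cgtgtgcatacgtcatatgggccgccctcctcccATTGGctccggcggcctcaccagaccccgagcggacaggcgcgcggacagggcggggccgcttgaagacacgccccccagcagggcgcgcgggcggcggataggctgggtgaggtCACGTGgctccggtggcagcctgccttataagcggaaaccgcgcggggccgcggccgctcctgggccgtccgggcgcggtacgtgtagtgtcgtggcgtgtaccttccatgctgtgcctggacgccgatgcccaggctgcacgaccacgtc
Hsd17b7, chr1:169969156-169969455, minus strand: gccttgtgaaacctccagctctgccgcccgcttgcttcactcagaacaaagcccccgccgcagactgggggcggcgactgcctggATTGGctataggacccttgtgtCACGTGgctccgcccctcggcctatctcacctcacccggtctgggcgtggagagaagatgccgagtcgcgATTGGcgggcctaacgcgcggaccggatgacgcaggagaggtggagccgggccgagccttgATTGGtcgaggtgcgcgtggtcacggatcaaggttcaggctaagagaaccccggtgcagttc
Elovl6, chr3:129532136-129532435, plus strand: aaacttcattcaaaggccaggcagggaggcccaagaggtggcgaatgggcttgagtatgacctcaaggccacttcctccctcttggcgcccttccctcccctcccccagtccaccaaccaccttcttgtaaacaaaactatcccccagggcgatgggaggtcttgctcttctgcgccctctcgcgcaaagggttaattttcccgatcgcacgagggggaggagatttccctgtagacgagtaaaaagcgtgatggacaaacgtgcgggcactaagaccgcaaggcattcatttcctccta

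TCACNCCA was found in 3 of the 27 member windows (11.1%) and in 4.97% of the 27025 windows of all genes. Its first base lay 137 bases before the start of Hmgcs1, 162 before that of Srebf2 and 177 before that of Sc4mol. CACGTG was in 6 of the 27 (22.2%) against 8.09% of all windows. CCAAT was the most frequent, in 22 of the 27 (81.5%) against 41.1% of all windows. Among the 11537 tested genes with a window, TCACNCCA was in 4.63%, CACGTG in 11.1% and CCAAT in 42.8%. The 12 members with a window that rose held TCACNCCA in 3, CACGTG in 3 and CCAAT in 12, and the 15 other members held them in 0, 3 and 10. In the window of Elovl6 none of the 3 searches had a match, which says only that these letters are not there.

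Over the 34 members, 15 rose and 3 fell in APL cells, against the 21.7% and 24.4% of all genes tested that did so (46.1% in either direction). A further 8 higher and 2 lower members had an adjusted p under 0.05 but not the fold, so that by adjusted p alone 23 were higher and 5 lower, where 29.7% and 37.3% of all genes were. The other 6 members had neither. Separate ranges, with all APL libraries above or all below the MP libraries, were seen for 22 members that were higher and 5 that were lower, and for 31.1% and 39.8% of all genes tested. The median log2 FC was 0.48. Of the 18 enzymes of the sterol route 10 rose and none fell. Of the 10 fatty acid genes 2 rose and 3 fell, shares near those of all genes tested, and the difference between these groups of members was not tested. Their medians were 0.79 and -0.03.

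**Figure D1:**
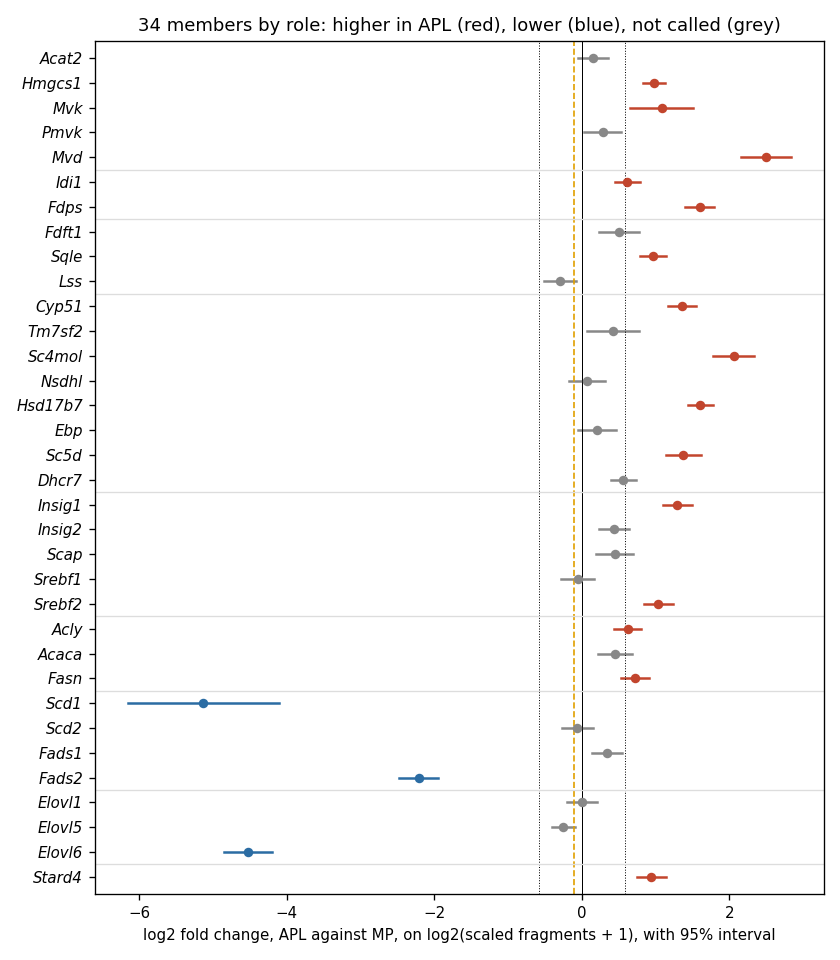
Log2 fold change of each of the 34 members, APL against MP, with its 95% interval from limma (3 libraries per group), grouped by role from the first sterol enzymes at the top to the sterol carrier at the bottom. Red points rose, blue points fell and grey points were not called, the dotted lines mark a fold of 1.5, and the dashed line marks the median of all genes tested at -0.10. Scd1, Elovl6 and Fads2 stand far to the left, and the sterol enzymes from Hmgcs1 to Dhcr7 lie at or to the right of 0 except Lss.

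The sterol route begins with the enzymes that make mevalonate and isopentenyl diphosphate. Acat2, which joins acetyl-CoA units, was at 984, 1013 and 1154 scaled fragments in the MP libraries and 1084, 1151 and 1261 in the APL libraries. Its groups overlapped, and the 95% interval of its log2 FC of 0.15 ran from -0.06 to 0.36. Hmgcs1, the HMG-CoA synthase, was at 937, 924 and 966 scaled fragments in MPs and at 1770, 1910 and 1895 in APL cells. Every APL library thus lay far above every MP library, with a log2 FC of 0.98 (SE 0.07, limma adjusted p = 2.6e-06). Mevalonate kinase, Mvk, had 202, 170 and 273 scaled fragments in MPs and 372, 487 and 495 in APL cells (log2 FC 1.08, SE 0.19, limma adjusted p = 0.00086). The next kinase, Pmvk, was at 407 to 483 scaled fragments in MPs and 477 to 574 in APL cells, with overlapping groups and a fold of 1.22. The widest difference of the sterol route was that of Mvd, the decarboxylase that yields isopentenyl diphosphate. It was at 141, 126 and 181 scaled fragments in MPs and at 754, 886 and 876 in APL cells (log2 FC 2.49, SE 0.15, limma adjusted p = 9.5e-07). Mvd lies on chromosome 8 (chr8:122433596-122443422, GRCm38), whose other genes had the median log2 FC of 0.47 given above.

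Both genes of the isoprenoid diphosphate step rose, where 21.7% of all genes tested did. Idi1, the isomerase, was at 1587, 1421 and 1492 scaled fragments in MPs and 2255, 2200 and 2444 in APL cells. The groups were apart, but the fold of 1.53 was near the threshold: without APL library 3 its log2 FC was 0.57, without MP library 2 it was 0.58, and in both fits the call was lost. Fdps, the farnesyl diphosphate synthase whose product feeds sterols and the prenylation of proteins, was at 1681, 1501 and 1718 scaled fragments in MPs and at 4577, 4907 and 5328 in APL cells. Its log2 FC was 1.60 (SE 0.08, limma adjusted p = 4.5e-07). Per length it was the second highest member in MPs, at 50.4 ± 2.72 FPKM (SD, n = 3), and the highest in APL cells, at 145, 154 and 167 FPKM.

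The 3 enzymes from farnesyl diphosphate to lanosterol did not move alike. Sqle, the squalene epoxidase and a rate-limiting enzyme of the route, rose from 953, 859 and 989 scaled fragments to 1791, 1879 and 1802 (log2 FC 0.97, SE 0.08, limma adjusted p = 5.9e-06). It lies on chromosome 15. Fdft1, the squalene synthase, was at 448, 376 and 520 scaled fragments in MPs and 623, 643 and 623 in APL cells. The groups were apart, but the fold of 1.42 was under the threshold, and the log2 FC went from 0.50 to 0.62, with a call, without MP library 3. Lss, the lanosterol synthase, was the 1 enzyme of the route with a lower level in APL cells, at 401, 403 and 402 scaled fragments against 518, 445 and 523 in MPs. Its adjusted p of 0.025 (limma) passed while its fold of 1.23 did not. Fdft1 and Lss each share a locus in the table with 1 other gene (Ctsb and 4930483K19Rik). All 6 values of both genes were whole numbers of fragments, so no division of fragments within these loci showed.

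Of the 8 enzymes from lanosterol to cholesterol, 4 rose and none fell, against 21.7% and 24.4% of all genes tested. Cyp51, the lanosterol demethylase, was at 734, 632 and 700 scaled fragments in MPs and 1685, 1766 and 1862 in APL cells (log2 FC 1.36, SE 0.08, limma adjusted p = 1.1e-06). Sc4mol, the methylsterol monooxygenase, was at 406, 326 and 460 scaled fragments in MPs and at 1641, 1616 and 1661 in APL cells. The APL libraries lay close together and the log2 FC was 2.06 (SE 0.12, limma adjusted p = 9e-07). Like Mvd, Sc4mol lies on chromosome 8. Hsd17b7, the sterol ketoreductase, was at 473, 450 and 441 scaled fragments in MPs and 1388, 1397 and 1380 in APL cells (log2 FC 1.61, SE 0.07, limma adjusted p = 2e-07). Sc5d, the lathosterol desaturase, was at 385, 327 and 365 scaled fragments in MPs and 941, 849 and 1010 in APL cells (log2 FC 1.38, SE 0.10, limma adjusted p = 4e-06). Neither Hsd17b7 nor Sc5d lies on chromosome 8 or 15.

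The other 4 late enzymes were not called. Dhcr7, which forms cholesterol from its direct precursor, came nearest, at 967, 902 and 1012 scaled fragments in MPs and 1369, 1477 and 1402 in APL cells. Its groups were apart and its fold was 1.48. It was called, at a log2 FC of 0.60, without MP library 3. Tm7sf2, a sterol reductase that shares its locus with Vps51, was at 139 to 176 scaled fragments in MPs and 185 to 244 in APL cells (fold 1.34). Nsdhl, the partner of Sc4mol in removing the methyl groups, was at 608 to 780 scaled fragments in MPs and 699 to 768 in APL cells, and its log2 FC of 0.07 had an interval from -0.17 to 0.31. Ebp, the sterol isomerase, had a log2 FC of 0.21 with an interval from -0.06 to 0.47. The groups of Nsdhl and Ebp, both on the X chromosome, overlapped.

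**Figure D2:**
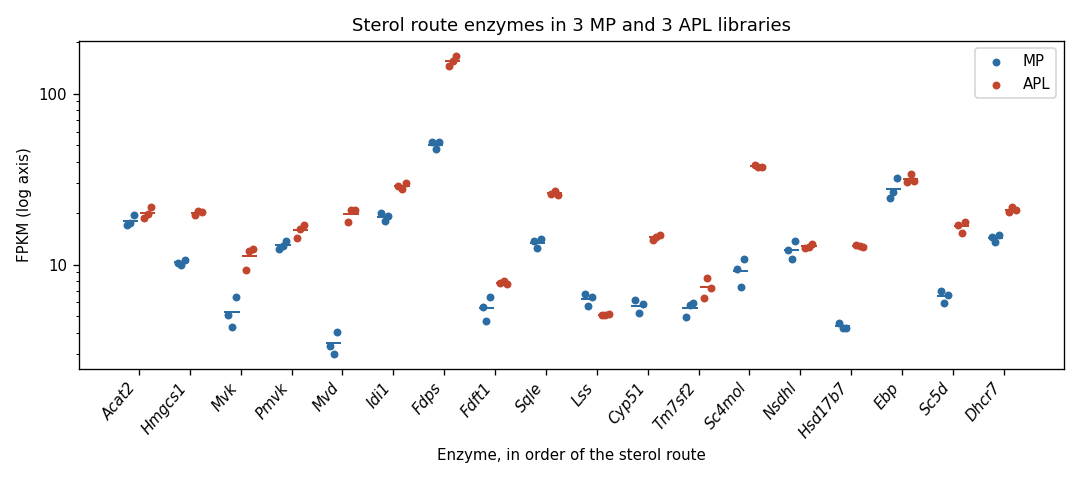
FPKM of the 18 sterol route enzymes on a log axis, in pathway order, with 1 point per library (3 MP in blue, 3 APL in red) and the mean as a bar. Fdps is the highest in both groups, at 47.2 to 52.1 and 145 to 167 FPKM, Mvd, Sc4mol and Hsd17b7 show wide gaps, and Acat2, Pmvk, Nsdhl and Ebp overlap.

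Summed over the 18 enzymes, the route stood at 229, 215 and 247 FPKM in MPs and 444, 468 and 482 FPKM in APL cells, which is 2.02 times as much on average. Without Fdps the ratio of the sums was 1.72. The order of levels within the route changed as well: among all 34 members Sc4mol went from rank 22 in MPs to rank 6 in APL cells, and Mvd from rank 33 to rank 20. In MPs, by contrast, the highest sterol enzymes after Fdps were Ebp at 27.7 ± 3.98 FPKM and Idi1 at 19.1 ± 1.13 FPKM (SD, n = 3). Other genes of the route, from a list that was not among the members, were less uniform. Of 5 such genes 1 rose and 1 fell, against 21.7% and 24.4% of all genes tested. Acat1, the mitochondrial thiolase, fell (log2 FC -0.70). Lbr, a nuclear envelope protein with sterol reductase activity, had a log2 FC of 0.29 at a fold of 1.22 and was not called.

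Among the sterol sensors, Srebf2 and Srebf1 differed. Srebf2 was at 2157, 1971 and 2369 scaled fragments in MPs and 4128, 4618 and 4553 in APL cells. All APL libraries lay above all MP libraries, with a log2 FC of 1.04 (SE 0.09, limma adjusted p = 8e-06). The gene lies on chromosome 15 (chr15:82147269-82204960, GRCm38), whose other genes had a median of 0.46. Srebf1 was at 2466, 2286 and 2760 scaled fragments in MPs and at 2140, 2587 and 2502 in APL cells. These groups overlapped, and the log2 FC of -0.06 had an interval from -0.28 to 0.17. Its sign changed under median ratio scaling and without APL library 1 or MP library 3, and it shares its locus with Rai1. As a share of the summed FPKM of both factors, Srebf1 made up 54.0% ± 0.341 in MPs and 35.5% ± 0.798 in APL cells (SD, n = 3; two-sided exact permutation p = 0.1, also after adjustment over 6 such shares, which is the smallest p that 3 against 3 allows).

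Insig1, which is itself an SREBP target, was at 669, 563 and 650 scaled fragments in MPs and 1554, 1489 and 1561 in APL cells (log2 FC 1.29, SE 0.09, limma adjusted p = 1.9e-06). Its relative Insig2 was at 367, 404 and 408 scaled fragments in MPs and 541, 544 and 510 in APL cells, apart but with a fold of 1.35. The share of Insig1 in the summed FPKM of the pair was 61.5% ± 3.48 in MPs and 74.2% ± 1.13 in APL cells (SD, n = 3, exact permutation p = 0.1). Scap, the escort, was at 2340 to 3012 scaled fragments in MPs and 3204 to 3801 in APL cells (fold 1.36), and was not called. Of 10 further sensing genes tested, 2 rose and none fell, against 21.7% and 24.4% of all genes tested. Erlin2, a protein of the endoplasmic reticulum that takes part in the degradation of other membrane proteins there, rose with a log2 FC of 0.62 and lies on chromosome 8. Stard4, which carries sterols between membranes and belongs to the members, was at 856, 876 and 777 scaled fragments in MPs and 1765, 1494 and 1570 in APL cells (log2 FC 0.94, SE 0.09, limma adjusted p = 1.7e-05).

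Fatty acid synthesis starts with 3 members that all lay higher in APL cells with no overlap of the groups. The same was seen for 31.1% of all genes tested. Acly, which makes cytosolic acetyl-CoA from citrate, was at 7210, 7025 and 7929 scaled fragments in MPs and 10780, 11723 and 11630 in APL cells. The call of its fold of 1.54 (limma adjusted p = 0.00013) was lost under quantile normalization and under scaling to the same total, with or without voom weights. Acaca, the acetyl-CoA carboxylase, was at 2024, 1948 and 1550 scaled fragments in MPs and 2574, 2455 and 2483 in APL cells, under the threshold at a fold of 1.37. Fasn, the fatty acid synthase, was at 6036, 5844 and 5300 scaled fragments in MPs and 8822, 10117 and 9390 in APL cells (log2 FC 0.72, SE 0.08, limma adjusted p = 6.9e-05). With the desaturases and elongases added, the 10 fatty acid members summed to 275 ± 6.97 FPKM in MPs and 286 ± 7.62 FPKM in APL cells (SD, n = 3), a ratio of 1.04.

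The desaturases and elongases held the 3 members that fell, each beside a relative that was not called. Elovl6, which elongates saturated and monounsaturated chains such as palmitate (chr3:129532386-129638493, GRCm38), was at 740, 749 and 693 scaled fragments in MPs and at 35.3, 28.6 and 28.4 in APL cells. The APL libraries kept a level over the floor of 3 fragments but lay 23.0-fold under the MP libraries (log2 FC -4.52, SE 0.14, limma adjusted p = 3.1e-08). With FPKM in place of fragments, where its level in APL cells was under the added 1, the log2 FC was -2.11. Elovl5, the elongase of polyunsaturated chains, was at 3021, 2788 and 2869 scaled fragments in MPs and 2334, 2388 and 2575 in APL cells, lower with no overlap but at a fold of 1.19. Elovl1, the elongase of very long chains, was at 1842 to 2239 scaled fragments in MPs and 1906 to 2109 in APL cells, and the interval of its log2 FC ran from -0.20 to 0.21. Its sign near 0 depended on the scaling and its locus is shared with Cdc20. Elovl6 made up 8.58% ± 0.465 of the summed FPKM of Elovl6 and Elovl5 in MPs and 0.475% ± 0.0802 in APL cells (SD, n = 3, exact permutation p = 0.1). Elovl1 made up 53.1% ± 2.48 and 57.6% ± 1.67 of its sum with Elovl5 (SD, n = 3, exact permutation p = 0.1).

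Fads1 and Fads2 are neighbours on chromosome 19 and encode the desaturases of polyunsaturated fatty acids. Fads2 (chr19:10064164-10101503, GRCm38), the first desaturase of that route, was at 930, 969 and 1202 scaled fragments in MPs and 216, 214 and 235 in APL cells. It fell to the same low level in all 3 APL libraries, with a log2 FC of -2.21 (SE 0.12, limma adjusted p = 4.6e-07), and went from rank 6 of the 34 members in MPs to rank 31 in APL cells by FPKM. Fads1, next to it, was at 1356, 1434 and 1610 scaled fragments in MPs and 1718, 1912 and 1941 in APL cells, higher with no overlap but at a fold of 1.27. The share of Fads1 in their summed FPKM was 33.9% ± 0.811 in MPs and 75.1% ± 1.07 in APL cells (SD, n = 3, exact permutation p = 0.1). The third gene of the cluster, Fads3, which is no member, was at 1175, 1110 and 1277 scaled fragments in MPs and 28.3, 32.9 and 23.5 in APL cells (log2 FC -5.36, SE 0.15, limma adjusted p = 2.1e-08).

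The stearoyl-CoA desaturases, which introduce the first double bond, were represented mainly by Scd2. It was at 7303, 6299 and 5878 scaled fragments in MPs and 6435, 5808 and 6390 in APL cells, with overlapping groups and a log2 FC of -0.06 (interval -0.27 to 0.15). Its sign changed under median ratio scaling and without MP library 1. Scd1 was at 84.5, 52.3 and 63.3 scaled fragments in MPs and 2.43, 0.914 and 0.03 in APL cells. Counted over the group this was about 215 fragments in MPs and 3 in APL cells, a ratio of 68.1 with an exact 95% counting interval from 23.0 to 333. The fitted log2 FC of -5.13 (limma adjusted p = 1.1e-05) depends on the added 1. No value of Scd2 and only 2 of the 6 values of Scd1 were within 0.05 of a whole number of fragments. 1 of these 2, in APL library 3, was 0.024 fragments. Whether fragments were divided between these similar genes was not tested, and the low values of Scd1 are uncertain. In neither group did Scd1 exceed 1.22% of the summed FPKM of the pair.

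**Figure D3:**
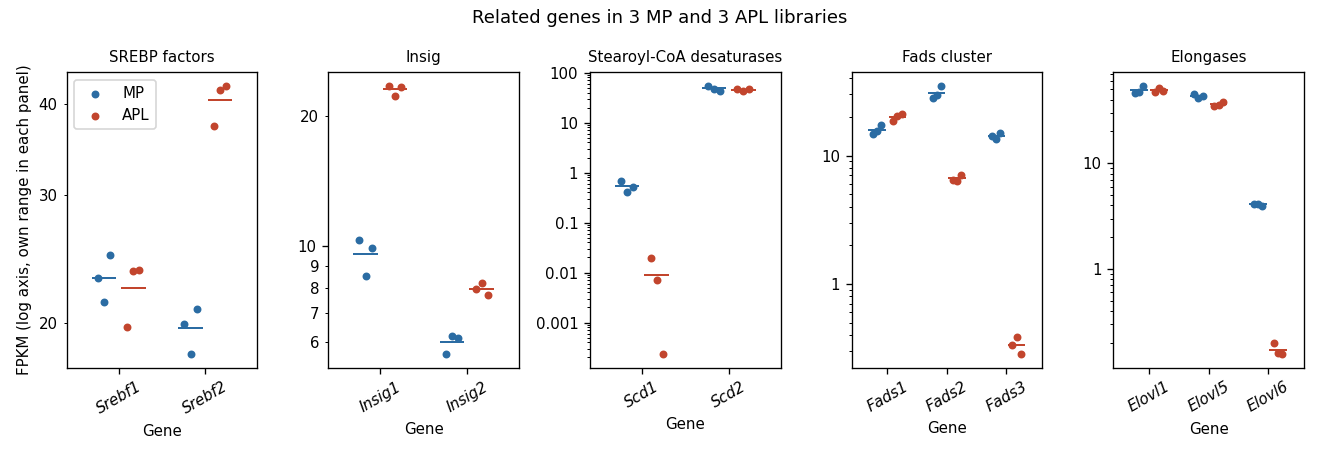
FPKM of related genes on log axes, each panel with its own range, with 1 point per library (3 MP in blue, 3 APL in red) and the mean as a bar. Srebf2 and Insig1 stand higher in APL cells, where Srebf1 overlaps between the groups, and Fads2, Fads3, Elovl6 and Scd1 stand lower beside Fads1, Elovl5 and Scd2, whose levels differ little.

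Other genes of fatty acid synthesis were listed apart from the members. Of 19 tested, 4 rose and 6 fell, against 21.7% and 24.4% of all genes tested. Scd3 and Scd4 were among those that fell, at no more than 3.92 scaled fragments in any library. The decreases of Fads3 and of Acss2, which makes acetyl-CoA from acetate, were the largest. Acss2 was at 1078, 1149 and 1497 scaled fragments in MPs and 95.4, 92.8 and 74.1 in APL cells (log2 FC -3.81, SE 0.16, limma adjusted p = 1.1e-07), so that of the 2 cytosolic sources of acetyl-CoA examined Acly rose and Acss2 fell. Elovl7 followed, at 24.4 to 44.2 scaled fragments in MPs and 7.41 to 13.9 in APL cells. Mid1ip1, which activates acetyl-CoA carboxylase by polymerization, was at 1181, 1083 and 1325 scaled fragments in MPs and 3040, 3361 and 3137 in APL cells (log2 FC 1.41, SE 0.09, limma adjusted p = 1.2e-06). Elovl3 and Thrsp were called higher too, but at no more than 9.43 scaled fragments in any library. Slc25a1, the mitochondrial citrate carrier that supplies Acly, had overlapping groups and a log2 FC of -0.04 with an interval from -0.36 to 0.28.

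Elovl6, Fads2, Fads3 and Acss2 were lower in the group in which the summed erythroid and megakaryocyte markers were lower as well, at 12.3 to 23.4 FPKM against 1501 to 1978 FPKM and 3.53 to 4.83 FPKM against 68.8 to 104 FPKM. Hbb-b1 of the erythroid list was under the floor of 3 fragments in 2 MP libraries and in all APL libraries, and Gp9 of the megakaryocyte list was at 0 in 2 APL libraries. The sterol enzymes that rose were higher in the group with more early granulocyte RNA. Other marker lists differed between the groups too. Of 5 mast cell and basophil markers 3 fell and 1 rose, against 24.4% and 21.7% of all genes tested. Of 3 B cell markers 2 fell, at a sum of at most 0.464 FPKM. Most of the erythroid sum in MPs was Car1, at 1206 to 1677 FPKM. The part of these cell types in the results was not tested.

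Genes that take up, store and move sterols were a list outside the members. Of these 15 genes 6 rose and 2 fell, against 21.7% and 24.4% of all genes tested. Nr1h3, the oxysterol receptor LXR alpha, was at 23.4, 28.6 and 27.1 scaled fragments in MPs and at 193, 229 and 246 in APL cells (log2 FC 3.03, SE 0.18, limma adjusted p = 9.7e-07). Soat1, which esterifies cholesterol for storage, was at 1192, 1082 and 971 scaled fragments in MPs and 4514, 5085 and 4948 in APL cells (log2 FC 2.17, SE 0.09, limma adjusted p = 1.2e-07). The gene for its relative Soat2 fell from 142, 179 and 207 scaled fragments to 34.3, 47.7 and 47.0 and lies on chromosome 15. Stard5, a sterol carrier related to Stard4, was at 200 to 247 scaled fragments in MPs and 796 to 928 in APL cells. Vldlr, the receptor for very-low-density lipoprotein, was at 68.4 to 83.9 scaled fragments in MPs and had 1 fragment in each APL library, a ratio of 80.2 with an exact 95% counting interval from 27.1 to 391.

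**Figure D4:**
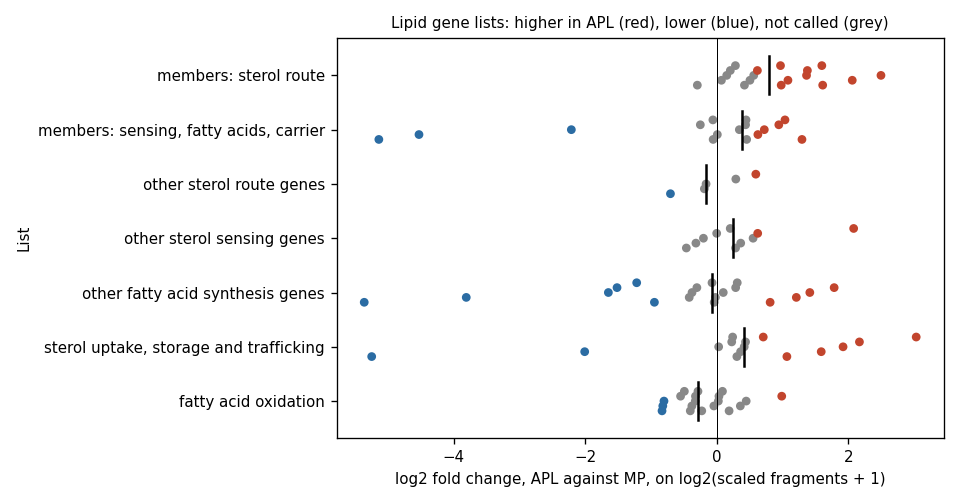
Log2 fold change of each tested gene, APL against MP, in the members and in the other lipid gene lists, with 1 point per gene (red rose, blue fell, grey not called) and the median of each list as a bar. The 18 sterol route members have a median of 0.79 and hold no gene that fell, and the lists of fatty acid genes spread to both sides.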

How the data were processed

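RNA of 3 MP and 3 APL libraries had been sequenced after TruSeq preparation. The authors deposited 1 table with an FPKM value and a fragment value per gene and library. The fragment values are a signal, namely estimated fragments scaled by the authors with a factor that differed between libraries. Dividing by the value of 1 fragment gave whole numbers (within 0.05) for 87.6% to 90.3% of values, too few for a count test, and totals of 22976905 to 26932327 fragments in MPs and 20608715 to 28382785 in APL cells. A gene with at most 3 fragments was not distinguished from absence, and intervals on fragments cover counting error only. The submitters' processing notes list CASAVA 1.8, TopHat2 2.0.6 and mm10, whereas the methods of the paper name STAR, mm9 and HTSeq-count with DESeq2. Loci were read as GRCm38, since all 34 member loci overlapped the RefSeq gene of that build.

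Here limma 3.58.1 (R 4.3.3, lmFit and eBayes with trend) was fitted to log2(scaled fragments + 1) over 14595 genes. The fit was also run on simulated whole counts with far fewer changed genes than were called here. That run does not measure its error rate on these data. Shares were compared by exact permutation (scipy 1.17.1), and figures drawn with matplotlib 3.10.9. Columns with values of other samples were not found. The text names all 34 members and, from each other list, the 3 called genes with the largest rise and fall, with Lbr, Acss2 and Slc25a1 always given; the values of some genes are not reported here. The sequences shown were chosen for their motifs. The list of members is defined by gene names and not by a measured value, but members, lists and tests were chosen with earlier results of these data known. The 17 alternative fits covered filters, pseudocounts, scalings, FPKM, voom, a replicate block and each library left out, beside 2 other fold thresholds.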

Additional observations from a re-analysis of the deposited data

How the results depend on the processing

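Of the 34 members, 26 kept direction and call in all 17 alternative fits that gave a value. Idi1 lost its call with FPKM (log2 FC 0.57), with the same total (0.49) and with voom (0.49), and Acly with quantile normalization (0.53), the same total (0.49) and voom (0.49). Scd1 gave no value with FPKM or with a minimum in all 6 libraries. Dhcr7 gained a call with median ratio scaling (0.62). Leaving out each library in turn gave 14 to 17 members higher and 3 lower. Without a fold threshold 23 members were higher and 5 lower, against 29.7% and 37.3% of all genes tested. With a fold over 2, 9 members were higher, and the share of all genes at that fold is not reported here. Of the 14595 genes tested, 3558 were lower, and 5443 without a fold threshold. The fit with FPKM tested 11131 genes, of which 2151 were higher and 1980 lower. Of the 68 other lipid genes tested 14 were higher and 12 lower, against 21.7% and 24.4% of all genes tested. By FPKM 9 of the other lipid genes were higher, beside the 2151 of 11131 genes in that fit. Without a fold threshold 26 of the 68 were higher and 21 lower, against 29.7% and 37.3% of all genes tested. With a fold over 2, 9 were higher and 7 lower, again without a share of all genes to set beside them.

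Among the members, signs turned only in 4 that were not called. Nsdhl had a log2 FC of -0.061 with the same total, -0.062 with voom and -0.023 to 0.16 with a library left out. Srebf1 had 0.0065 with median ratio scaling and -0.12 to 0.027 with a library left out. Scd2 had 0.0027 with median ratio scaling and -0.13 to 0.028 with a library left out. Elovl1 had -0.0048 with FPKM, -0.12 with the same total and with voom, and -0.046 to 0.095 with a library left out. The cause was not tested. Scaling to the same total moved the median log2 FC of all genes from -0.10 to -0.23. A fit with replicate block had 15 members higher and 3 lower and changed no member's call. The numbers were not taken to pair the libraries. Over 11061 genes the deviations of same-numbered libraries correlated at 0.13, -0.0016 and 0.13. Those of differently numbered libraries correlated at -0.28 to 0.20. With 3 libraries per group, each taken from its group mean, these values cannot exclude a pairing. At this depth Scd1 was the 1 member at the floor of 3 fragments in a group.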

Other observations

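Fatty acid oxidation, the pathway opposite to the one reported, was measured by 19 tested genes listed apart from the members. In APL cells 3 of them fell and 1 rose, against 24.4% and 21.7% of all genes tested. A further 7 lower and 1 higher had an adjusted p under 0.05 (limma, Benjamini-Hochberg) but not the fold of 1.5. By adjusted p alone, with or without the fold, 37.3% of all genes tested were lower and 29.7% higher. The median log2 FC was -0.29, where that of all genes tested was -0.10. Acaa2, the mitochondrial thiolase of the last step, was at 2518, 2515 and 3317 scaled fragments in MPs and 1394, 1736 and 1537 in APL cells (log2 FC -0.83). The enoyl-CoA isomerases Eci1 and Eci2, which prepare unsaturated chains for oxidation, had a log2 FC of -0.82 and -0.80. In all 3 genes the groups did not overlap, as in 70.9% of all genes tested, and the decreases were under 2-fold. Acads, the dehydrogenase of short chains, went the other way, at 1180, 1183 and 1572 scaled fragments in MPs and 2259, 2804 and 2698 in APL cells (log2 FC 0.99, SE 0.13, limma adjusted p = 0.00015). Cpt1a, which admits fatty acids to the mitochondrion, was at 2877 to 4207 scaled fragments in MPs and 3321 to 3614 in APL cells, with overlapping groups.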
